A study of Mus musculus with 6 samples.

Results

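Il6, Socs3 and Pim1 were followed heart by heart as a cytokine and a pair of genes that its pathway is known to induce. They are 3 of the 8969 protein-coding genes in the deposited table, taken by symbol and each listed with 1 transcript. They were chosen by their measured FPKM in I/R against Sham hearts, so that difference is given below as a description and without a test. The samples were 6 hearts of male mice, isolated and kept alive by Langendorff perfusion, in which fluid is driven through the coronary vessels. Contraction went on in the 3 Sham hearts. The 3 I/R hearts, for ischaemia and reperfusion, were arrested for 30 min with Thomas cardioplegic solution and then reperfused for 1 h. Isolation and perfusion were common to both groups, and the strain and the age of the mice were not stated in the labels. Values of a group are given in the order of replicates 1, 2 and 3 throughout.

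Interleukin-6 is a secreted cytokine that binds its receptor IL-6R and then the shared signalling chain gp130. Janus kinases bound to gp130 phosphorylate the transcription factor STAT3, which enters the nucleus and induces target genes. Among these are Socs3, whose protein binds gp130 and the Janus kinases and shuts the signal off, and Pim1, a serine/threonine kinase that promotes cell survival. In the heart this pathway is known for its activation after ischaemia and for protective effects in cardiomyocytes. Socs3 and Pim1 can also be induced by other signals, and Il6 itself is a known target of NF-kB and AP-1.

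The sequences around the starts of the 3 genes are shown because the genes were compared as parts of 1 pathway and their letters differ. They run 5′ to 3′ from 250 bases before to 50 after the RefSeq start, build GRCm38.p6, and all 3 genes were matched by symbol. Capitals mark matches, on either strand, to a STAT element (TTCNNNGAA), an NF-kB site (GGG, any 2 bases, TTTCC), an AP-1 site (TGANTCA) or 7 letters of a cAMP response element (GACGTCA). Il6 lies at chr5:30012864-30013163 on the plus strand, Socs3 at chr11:117969317-117969616 on the minus strand and Pim1 at chr17:29490535-29490834 on the plus strand.
Il6: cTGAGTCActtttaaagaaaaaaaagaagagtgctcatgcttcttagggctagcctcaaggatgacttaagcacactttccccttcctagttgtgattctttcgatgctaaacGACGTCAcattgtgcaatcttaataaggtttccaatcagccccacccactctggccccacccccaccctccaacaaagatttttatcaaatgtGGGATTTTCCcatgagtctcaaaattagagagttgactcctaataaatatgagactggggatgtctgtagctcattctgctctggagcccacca
Socs3: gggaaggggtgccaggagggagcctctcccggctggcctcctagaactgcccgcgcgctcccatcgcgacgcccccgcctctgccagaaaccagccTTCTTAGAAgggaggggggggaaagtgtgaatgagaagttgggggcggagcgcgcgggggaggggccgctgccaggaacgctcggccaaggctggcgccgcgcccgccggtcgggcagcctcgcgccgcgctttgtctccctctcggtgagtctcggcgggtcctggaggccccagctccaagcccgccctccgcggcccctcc
Pim1: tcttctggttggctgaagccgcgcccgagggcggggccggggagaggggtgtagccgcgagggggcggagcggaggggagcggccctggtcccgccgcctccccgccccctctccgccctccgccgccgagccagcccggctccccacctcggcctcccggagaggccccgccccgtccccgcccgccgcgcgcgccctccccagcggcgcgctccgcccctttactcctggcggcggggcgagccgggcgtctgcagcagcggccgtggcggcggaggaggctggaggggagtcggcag

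The Il6 window held the NF-kB letters from 44 to 35 bases before the start, the partial cAMP response element from 137 to 131 and the AP-1 letters from 249 to 243, and no STAT element. The Socs3 window held 1 STAT element, TTCTTAGAA, from 154 to 146 bases before the start, and none of the other motifs. The Pim1 window held none of the 4. Of 32851 promoter windows of the same length, 8.3% held the STAT element, 1.63% the NF-kB letters, 7.81% the AP-1 letters and 3.21% the partial cAMP response element. G and C made up 44.0% of the Il6 window, 73.3% of the Socs3 window and 81.3% of the Pim1 window. RefSeq lists 2 starts for Pim1, of which the nearer to the deposited gene was taken. The start used for Il6 is the start of the gene in the deposited table, that for Pim1 lies 27 bases from it and that for Socs3 681 bases inside the gene. The whole Socs3 window, with its STAT element, therefore lies inside the deposited gene, and the bases before the deposited start were not searched. A match is a run of letters and not a measured binding site.

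Il6 (ENSMUSG00000025746, chromosome 5, 30013114 to 30019981, plus strand), the cytokine, was the least abundant of the 3. Levels are the authors' FPKM, reads scaled by transcript length and library total. The Sham hearts had 0.517, 3.19 and 1.59 FPKM of Il6, and the I/R hearts had 1.94, 10.2 and 9.49 FPKM. I/R replicates 2 and 3 were far above every Sham heart, whereas I/R replicate 1 lay below Sham replicate 2, so the groups overlapped. The means were 1.77 ± 1.34 FPKM in Sham and 7.20 ± 4.57 in I/R (SD, n = 3 hearts each), a ratio of 4.08. On the scale log2(FPKM + 1), which understates changes near 1 FPKM, I/R minus Sham was 1.46 ± 0.60 (SE of the limma fit).

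These Il6 values rested on few reads. The reads recovered from the FPKM were 12, 72 and 27 in the Sham hearts and 35, 212 and 174 in the I/R hearts. Exact Poisson 95% intervals, which cover counting error only, ran from 0.267 to 0.903 FPKM in Sham replicate 1 and from 2.49 to 4.01 in Sham replicate 2. The interval of I/R replicate 1 was 1.35 to 2.70 FPKM and overlapped that of Sham replicates 2 and 3. Those of I/R replicates 2 and 3, 8.85 to 11.6 and 8.13 to 11.0 FPKM, did not reach any Sham interval. The 6.16-fold range among the Sham hearts was thus wider than counting error.

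Socs3 (ENSMUSG00000053113, chromosome 11, 117966079 to 117970047, minus strand), the feedback inhibitor, was measured from 1113 to 8346 reads per heart. The Sham hearts had 85.4, 114 and 60.3 FPKM, and the I/R hearts had 167, 368 and 312 FPKM. All 3 I/R hearts lay above all 3 Sham hearts, and the lowest I/R heart, replicate 1, was 1.46 times the highest Sham heart. The ratio of the group means was 3.26, and I/R minus Sham was 1.66 ± 0.34 on the log2(FPKM + 1) scale (n = 3 per group).

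Pim1 (ENSMUSG00000024014, chromosome 17, 29490812 to 29496111, plus strand), the kinase gene, differed least. Sham levels were 80.7, 67.9 and 54.9 FPKM and I/R levels were 143, 158 and 106 FPKM, from 1047 to 3698 reads per heart. The groups did not overlap, and the lowest I/R heart, here replicate 3, was 1.31 times the highest Sham heart. The means were 67.8 ± 12.9 and 135 ± 26.8 FPKM (SD, n = 3 hearts each), a ratio of 2.0, and I/R minus Sham was 0.98 ± 0.20 on the log2(FPKM + 1) scale.

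**Figure D1:**
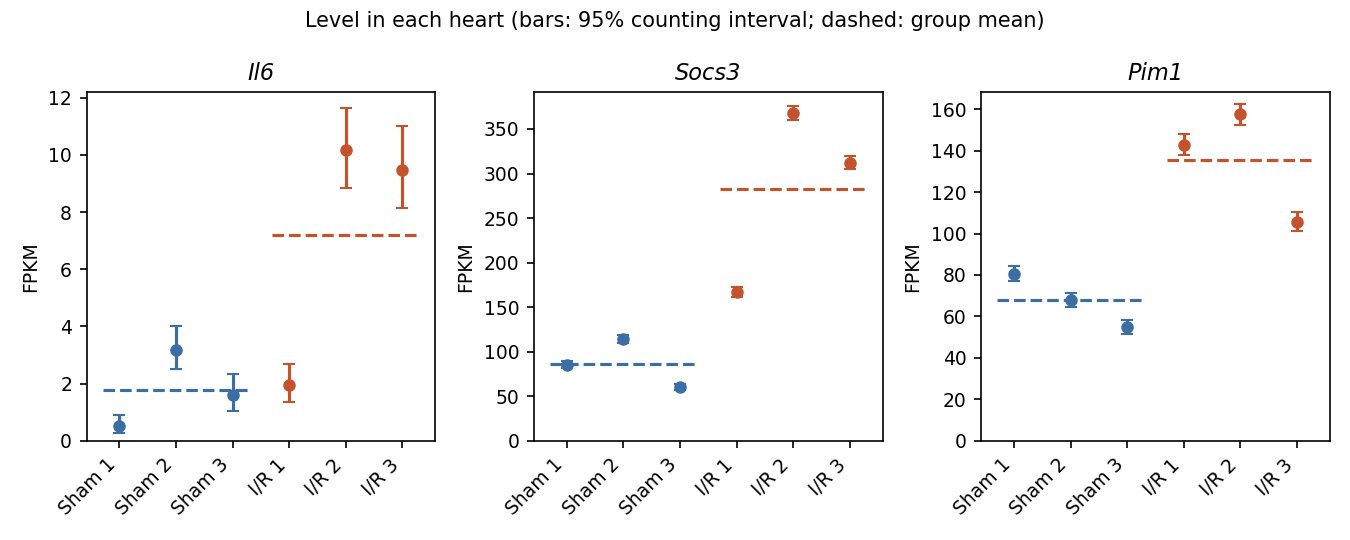
Level of Il6, Socs3 and Pim1 in FPKM (y axis, from 0) in each heart, Sham in blue and I/R in orange; bars are exact Poisson 95% intervals of the reads and dashed lines are group means. I/R replicate 1 lies within the Sham range for Il6 at 1.94 FPKM and above it for Socs3 and Pim1.

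Groups that did not overlap were thus seen for 2 of the 3 genes. Every I/R heart was above every Sham heart for 8.83% of the 5041 protein-coding genes tested, those averaging 0.5 FPKM or more, a filter that all 3 passed. This count was known when the genes were chosen. With 1 heart left out, I/R minus Sham ranged from 1.09 to 2.09 for Il6, from 1.43 to 2.0 for Socs3 and from 0.84 to 1.15 for Pim1.

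Heart by heart, Il6 and Socs3 had the same order in the I/R group and Pim1 had another. Replicate 2 was highest for all 3 genes. For Il6 and Socs3 replicate 3 came next and replicate 1 last, whereas for Pim1 replicate 1 came second and replicate 3 last. Set against the Sham mean, I/R replicate 1 was 1.10-fold for Il6, 1.93-fold for Socs3 and 2.11-fold for Pim1. I/R replicate 3 was 5.37-fold for Il6, 3.61-fold for Socs3 and 1.56-fold for Pim1. The heart with the least Il6 in the I/R group therefore had nearly as much Pim1 as the heart with the most, 143 against 158 FPKM. In I/R replicate 2 all 3 genes were at their highest, 5.76-fold, 4.24-fold and 2.32-fold.

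Among Sham hearts the orders differed as well. Replicate 2 had the most Il6 and Socs3, and replicate 1, which had the least Il6, had the most Pim1. Replicate 3 was lowest for Socs3 and Pim1 and second for Il6. Socs3 divided by Pim1, both in FPKM, gave 1.06, 1.68 and 1.10 for the Sham hearts and 1.17, 2.33 and 2.96 for the I/R hearts. It was as low in I/R replicate 1 as in a Sham heart and higher than in any Sham heart in I/R replicates 2 and 3. The order within the group is known for 3 hearts only, too few for a test of correlation within a group, and none was made.

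**Figure D2:**
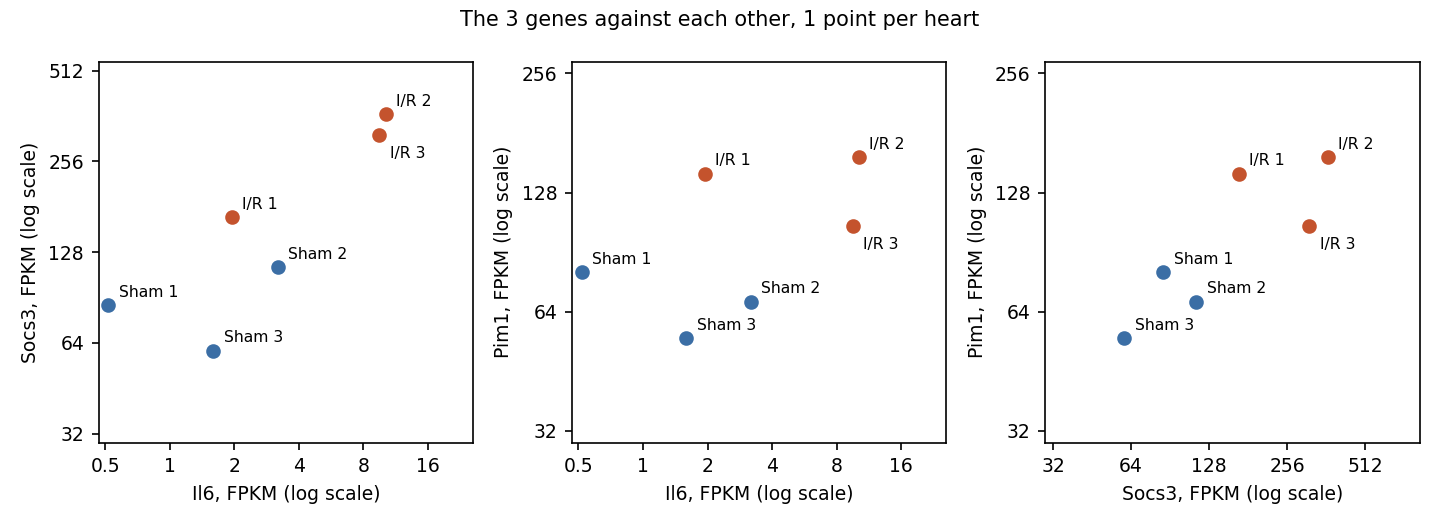
FPKM of the 3 genes against each other on log scales, 1 point per heart, Sham in blue and I/R in orange. I/R replicate 1 has Il6 in the Sham range with Pim1 above it (1.94 and 143 FPKM), and I/R replicate 3 has more Il6 and less Pim1 than that heart (9.49 and 106 FPKM).

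As a measure of likeness, Pearson's r of log2(FPKM + 1) was taken over the 6 hearts, as a description that includes the difference between the groups. It was 0.88 for Il6 and Socs3, 0.84 for Socs3 and Pim1 and 0.53 for Il6 and Pim1. Without I/R replicate 2 the value for Il6 and Pim1 was 0.26 and without I/R replicate 1 it was 0.74, so it moved with single hearts. Over deviations from the group means, which remove the group difference, it was 0.80 for Il6 and Socs3, 0.19 for Socs3 and Pim1 and −0.33 for Il6 and Pim1. The points share library and depth. Of the 2119 protein-coding genes averaging 5 FPKM or more, 58 were more like Il6 than Socs3 was, and 418 were more like Il6 than Pim1 was.

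The genes most like each of the 3 in r differed in kind. For Il6 they were Slc39a1, a zinc transporter gene, Jun, an AP-1 subunit (both r = 0.996), Ptgs2, the inducible cyclooxygenase (0.989), Tnfaip6, a secreted hyaluronan-binding protein (0.985), and Maff, a small Maf transcription factor (0.983). Jun stood at 388, 640 and 532 FPKM (Sham) and 512, 1117 and 1129 FPKM (I/R). Ptgs2 stood at 6.85, 22.4 and 14.6 FPKM (Sham) and 13.0, 43.7 and 45.1 FPKM (I/R). For all 5 genes the groups overlapped and I/R replicate 1 was the lowest I/R heart, as for Il6. Among the Sham hearts replicate 1 was lowest and replicate 2 highest for all 5, again as for Il6. Over deviations from the group means, r with Il6 ran from 0.97 for Maff to 0.99 for Jun.

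For Socs3 they were the chemokine gene Ccl4 (0.994), the transcription factor gene Myc (0.991), Zfp36, which encodes the mRNA decay factor tristetraprolin (0.988), Nol10 (0.985) and Bhlhe40, a transcription factor gene of the clock (0.981). Ccl4 stood at 20.5, 31.4 and 12.8 FPKM (Sham) and 56.2, 118 and 90.8 FPKM (I/R). For these 5 the groups did not overlap and I/R replicate 1 was again the lowest I/R heart. For Pim1 they were Kcmf1, a ubiquitin ligase gene (0.993), Rtl6 (0.984), Pigl (0.971), the peroxisomal protease gene Tysnd1 (0.970) and 1190002N15Rik (0.968). In these the groups did not overlap and I/R replicate 1 was not the lowest I/R heart. Their differences were small, from 0.14 ± 0.11 for Kcmf1 to 0.45 ± 0.18 for Pigl in log2(FPKM + 1), beside 0.98 for Pim1. The r of each is among the highest of 2119 genes over 6 points, and it cannot show whether function or control is shared.

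**Figure D3:**
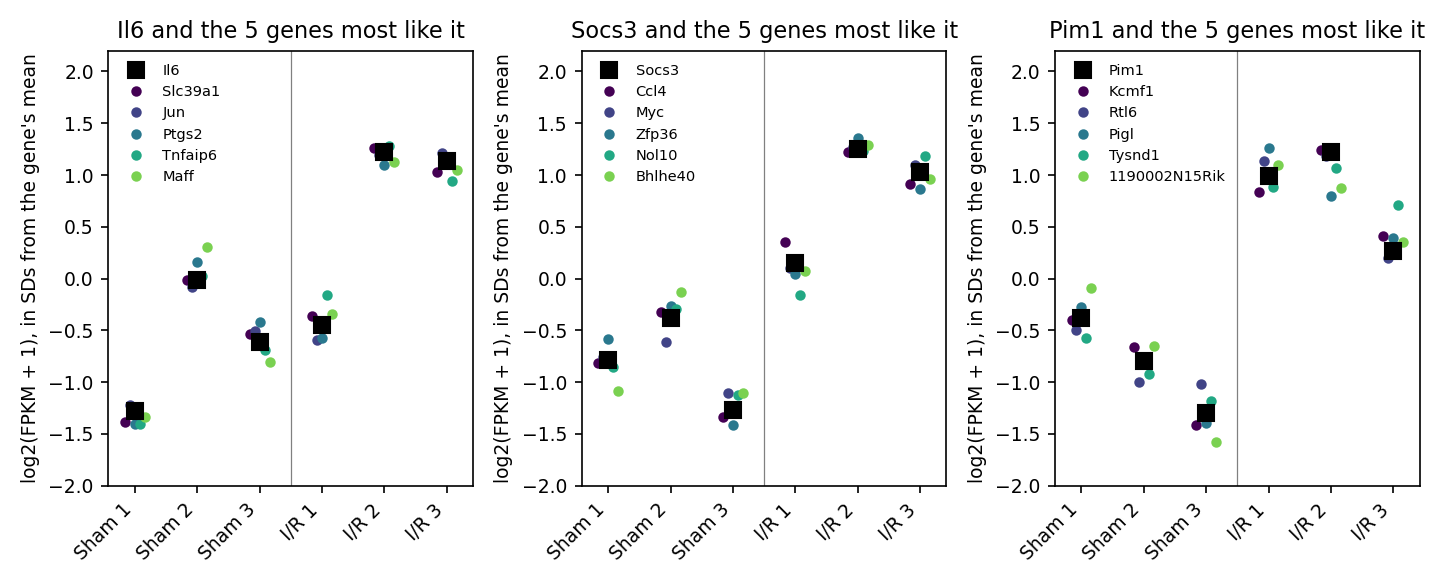
log2(FPKM + 1) of each of the 3 genes (black squares) and of the 5 genes with the highest r to it (coloured points) in SDs from each gene's own mean (y axis), by heart. I/R replicate 1 sits among the Sham hearts for the Il6 panel, just above them for Socs3 and well above them for Pim1.

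The other genes of the pathway came from 8 lists by role, 92 genes in all, of which 40 had a row in the table and 27 passed the filter of 0.5 FPKM. They asked whether the pathway around the 3 genes differed between I/R and Sham hearts. By limma with Benjamini-Hochberg adjustment, 0 of the 27 had an adjusted p under 0.05, where 0 of all 12114 genes tested (0%) had one. At an unadjusted p under 0.05, 10 of 27 were higher in I/R, where 3.43% of the protein-coding genes tested were, and 1 of 27 was lower, where 1.67% were. That background depends on the genes fitted together: a fit of the protein-coding genes alone called 296 of the 5041 higher, against 173 in the fit of all genes, and 11 of the 27. Limma voom on the recovered reads called 0 genes as well after adjustment and 1025 of 12113 (8.46%) at an unadjusted p under 0.05, beside 1023 of 12114 (8.44%) in the fit of FPKM. Of the 27, 18 were higher and 9 lower, with a median of 0.36 in log2(FPKM + 1) beside 0.021 over the 5041 protein-coding genes. The lists were written with earlier results of these hearts known, so the counts are a description of the lists.

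Of 8 other cytokines that signal through gp130, 4 were in the table and 2 tested, with 0 at an unadjusted p under 0.05. Osm, oncostatin M, averaged 1.24 ± 0.504 FPKM (Sham) and 1.14 ± 0.520 FPKM (I/R; SD, n = 3 hearts each, here and below). Ctf1, cardiotrophin 1, averaged 3.69 ± 0.482 and 3.33 ± 0.896 FPKM. The groups overlapped for both.

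Of 7 receptor genes, 3 were tested and 1 was at an unadjusted p under 0.05. Il6st, which encodes gp130, had Sham levels of 26.2, 34.8 and 32.6 FPKM and I/R levels of 42.8, 50.8 and 43.2 FPKM. The groups did not overlap, and the difference was 0.54 ± 0.15 in log2(FPKM + 1) (limma, unadjusted p = 0.00838, adjusted p = 0.435 over all genes). By limma voom on the recovered reads of its 3 listed transcripts the difference was 0.23, with an unadjusted p of 0.0879, so this call was lost. Il6ra, the receptor chain that binds interleukin-6, was at 4.26 ± 0.928 and 3.44 ± 0.532 FPKM (limma, adjusted p = 0.825), and Il11ra1 at 3.41 ± 0.404 and 3.41 ± 0.642.

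Of 11 genes of Janus kinases and STATs, 5 were in the table and 2 tested. Stat6 averaged 31.6 ± 1.83 FPKM (Sham) and 31.9 ± 1.62 FPKM (I/R), and Stat5b at 1.84 ± 0.537 and 1.29 ± 0.292. The row of Stat3, named here after its values were seen, held 3 reads in Sham and 9 in I/R, all hearts summed, at no more than 0.149 FPKM. It lists 1 transcript, and the part of the gene's reads on it is not known, so nothing about the level of Stat3 follows. Jak1, Jak2 and Jak3 were not analysed here, having no row.

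Of 14 genes of other inhibitors of cytokine signalling, 3 were tested and 0 had an unadjusted p under 0.05. Cish, an inhibitor induced by STAT5, averaged 1.02 ± 0.362 FPKM (Sham) and 1.74 ± 0.956 FPKM (I/R), Socs5 at 0.694 ± 0.267 and 0.765 ± 0.319, and Pias1 at 2.56 ± 0.211 and 2.29 ± 0.471. Pim3, the 1 other Pim kinase gene tested, was above Pim1 in every Sham heart, in FPKM, which are per length. Its Sham levels were 154, 134 and 172 FPKM and I/R levels were 109, 164 and 192 FPKM, with overlapping groups and a difference of −0.014 ± 0.22 (limma, adjusted p = 0.994). I/R replicate 1 was above I/R replicate 3 for Pim1 and below it for Pim3.

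Of 24 other target genes of STAT3, 8 were tested, of which 4 were higher and 1 lower in I/R at an unadjusted p under 0.05, with a median of 0.55. Myc had Sham levels of 3.71, 4.08 and 2.90 FPKM and I/R levels of 6.48, 13.0 and 11.7 FPKM, a difference of 1.28 ± 0.28 (limma, unadjusted p = 0.00254, adjusted p = 0.386). Irf1, an interferon regulatory factor, had 1.15, 1.78 and 1.05 FPKM in Sham, then 2.48, 9.63 and 6.08 FPKM in I/R, a difference of 1.47 ± 0.41 (adjusted p = 0.450, limma). In both, as in Socs3, I/R replicate 1 was the lowest I/R heart and still above every Sham heart. Bcl2l1, which encodes an anti-apoptotic protein, was the 1 with lower levels, by −0.86 ± 0.31 (limma, adjusted p = 0.527). The other two of the 4 higher genes fell outside the rule for named genes and were picked with their values in view. Cebpd, a C/EBP transcription factor gene, differed by 0.79 ± 0.28, and Cdkn1a, a cell cycle inhibitor, by 0.74 ± 0.27 with overlapping groups. With 1 heart left out, the unadjusted limma p was above 0.05 for Bcl2l1 and Cdkn1a in 4 of 6 cases each (without Sham replicate 1 or 3 or I/R replicate 2 or 3) and for Cebpd in 5 (all but I/R replicate 1).

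Of 18 genes of the NF-kB pathway, which is known to induce Il6, 6 were tested, all with higher means in I/R and 3 at an unadjusted p under 0.05, with a median of 0.72. Nfkbie, an inhibitor of NF-kB that it also induces, had Sham levels of 0.709, 1.20 and 0.514 FPKM and I/R levels of 3.49, 5.15 and 2.74 FPKM, a difference of 1.39 ± 0.27 (limma, unadjusted p = 0.00127, adjusted p = 0.386). Nfkbib differed by 0.71 ± 0.20, and Il1a, which encodes interleukin-1 alpha, by 1.41 ± 0.55 with overlapping groups. Without I/R replicate 2 the difference of Il1a was 0.83, and its unadjusted limma p was above 0.05 without that heart, I/R replicate 1 or Sham replicate 1 or 3. By limma voom the differences of Nfkbie, Nfkbib and Il1a were 2.18, 1.17 and 2.36, and with a pseudocount of 0.1 they were 2.13, 1.16 and 2.29, larger than with a pseudocount of 1 at these low levels. The order of Nfkbie in the I/R hearts was that of Pim1 and not that of Il6, with replicate 3 lowest. Nfkbib, Il1a and Il1b had this order too, and Tnf and Tlr4 had neither. Il1b, Tnf and Tlr4 are named here with their values in view. Of 8 regulators of the decay of Il6 mRNA, 2 were tested and both were higher at an unadjusted p under 0.05. Zfp36 differed by 0.99 ± 0.28 and Zfp36l1, its relative, by 0.62 ± 0.15, from 38.9 ± 3.94 to 60.5 ± 8.79 FPKM (adjusted p = 0.454 and 0.386, limma).

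**Figure D4:**
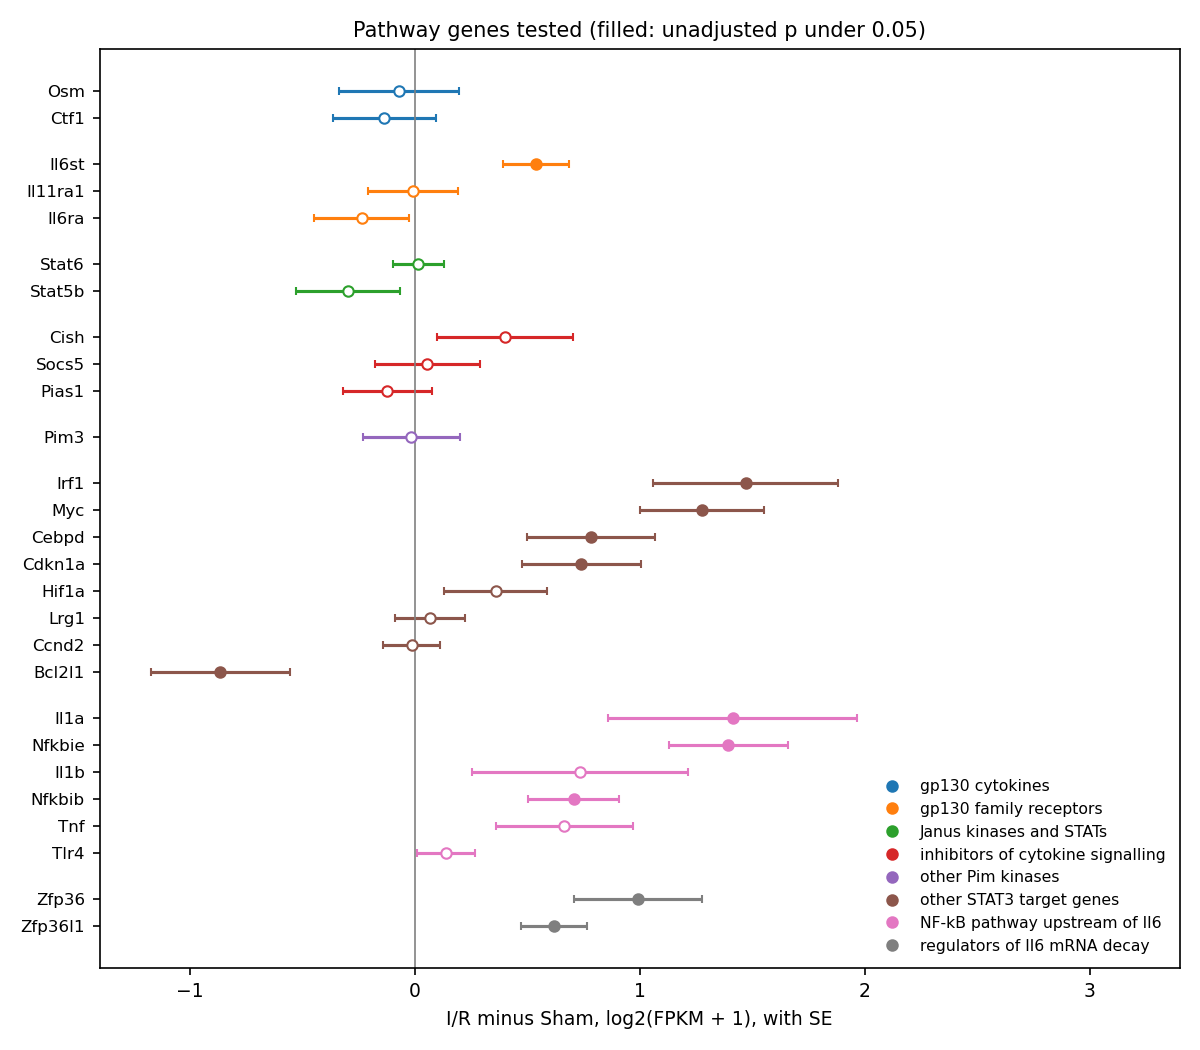
I/R minus Sham in log2(FPKM + 1) with SE (x axis, n = 3 hearts per group) for the 27 pathway genes tested, coloured by list; filled points have an unadjusted limma p under 0.05 and none has an adjusted p under 0.05. The filled points to the right of 0 lie among receptors, STAT3 targets, the NF-kB pathway and regulators of mRNA decay, and the 1 to the left is Bcl2l1.

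Across the 27 genes, I/R replicate 1 was the lowest I/R heart for 13 (48.1%), beside 27.2% of the 5041 protein-coding genes. Among the 10 genes higher at an unadjusted p under 0.05 it was lowest for 7. The share among all protein-coding genes called higher was not counted, so this is not shown to be particular to the pathway. I/R groups lay wholly above Sham for 8 of the 27, beside the 8.83% given above, and wholly below for 1, where 5.12% of the protein-coding genes did.

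At the Pim1 locus a lncRNA moved with Pim1. Gm26885 (ENSMUSG00000097125, chromosome 17, 29461896 to 29491925), picked with its values in view, lies on the minus strand, opposite to Pim1, and its span covers the first 1114 bases of the Pim1 gene. Its FPKM were 74.4, 63.6 and 52.9 (Sham) and 128, 149 and 91.4 (I/R). The order of the hearts was that of Pim1 in both groups, and r over the 6 hearts was 0.996. FPKM of lncRNAs were scaled by another total than those of protein-coding genes, so the 2 were compared in reads. Gm26885 had 710, 589 and 366 reads in Sham and 966, 1322 and 734 in I/R, which was 33.3% to 35.7% of the Pim1 reads in each heart. The authors' counting has a strand setting not given in the sources used here, and without strand the reads of the 2 genes in the shared span cannot be told apart. The difference of Gm26885 was therefore not taken as a second measurement.

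**Figure D5:**
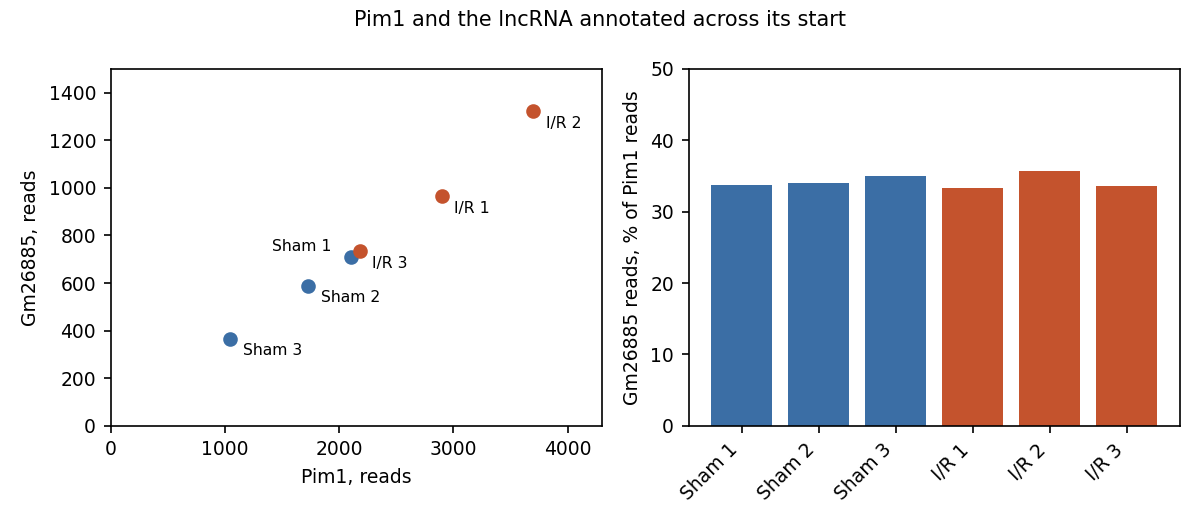
Left, reads of Gm26885 (y axis) against reads of Pim1 (x axis), 1 point per heart; right, Gm26885 reads as a percentage of Pim1 reads in each heart, Sham in blue and I/R in orange. The percentage stays between 33.3% and 35.7% while Pim1 reads range from 1047 to 3698.

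No other row within 100 kb overlapped any of the 3 genes. Near Il6 the 5 rows were low, among them the lncRNA A230098N10Rik, listed at 2.54 FPKM (1 read) in I/R replicate 1 and at 0 in the other 5 hearts. Near Socs3 there was 1 row, Gm11725, ranging from 2.59 to 7.94 FPKM (Sham) and from 2.07 to 4.99 FPKM (I/R). Near Pim1, Tbc1d22b was at 3.06 to 4.50 and 2.88 to 3.55 FPKM. None of these had groups that stood apart as at Socs3 and Pim1.

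Depth and cell types were read over the whole table. Library totals, recovered from the protein-coding FPKM, ran from 7233171 to 9902397 reads, and the transcripts listed held 36.8% to 39.9% of them. The part of a gene's reads on the listed transcripts is therefore not known for any of the 3 genes, or for the markers below. The marker sums depend on which transcripts are listed and do not compare 1 cell type with another. Cardiomyocyte markers were present, as 7 of 8 were in the table with a summed level between 578 and 654 FPKM (Sham) and between 442 and 508 FPKM (I/R). Macrophage markers, 6 of 11 in the table, summed to between 922 and 1104 FPKM (Sham) and between 1145 and 1239 FPKM (I/R), and fibroblast markers, 7 of 8, to between 170 and 222 and between 227 and 263 FPKM. These 3 sums did not overlap between the groups, as Socs3 and Pim1 did not, and their part in the result was not tested. Lyz2, at means of 626 (Sham) and 726 FPKM (I/R), made up most of the macrophage sum, and its groups overlapped. I/R lay wholly above Sham for 2 of the 6 macrophage markers (C1qb and Cd14) and 1 of the 7 fibroblast markers (Col1a1). Among the protein-coding genes tested 8.83% did so. It lay wholly below for 2 of the 7 cardiomyocyte markers (Tnnt2 and Pln), where 5.12% of those genes did. The same held for 1 of 5 endothelial markers (Tie1) and 1 of 4 lymphocyte markers (Cd3d). Cd3d fell below the filter of 0.5 FPKM and was not tested. It rested on 15 reads in all, none from an I/R heart, and reached at most 0.684 FPKM. These marker counts include genes that were not tested, whereas the percentages cover tested genes only, so they are not directly comparable. In log2(FPKM + 1), all 6 macrophage markers and 4 of 5 fibroblast markers tested were higher in I/R, and all 7 cardiomyocyte markers lower. These are signs only, and some differences were near 0. Fcgr1 differed by 0.0018, with means of 0.909 (Sham) and 0.882 FPKM (I/R), and Ttn by −0.053. The share of all genes with each sign was not counted. The macrophage markers Cd68, Adgre1 and Csf1r had no row. Endothelial markers, 5 of 8, summed to between 104 and 128 FPKM (Sham) and between 119 and 151 FPKM (I/R), and smooth muscle markers, 5 of 7, to between 810 and 1064 and between 795 and 1131 FPKM. Neutrophil markers, 3 of 9, summed to at most 1.06 FPKM (Sham) and 1.65 FPKM (I/R), with S100a8 listed at 0 in 5 hearts, and lymphocyte markers, 4 of 7, to at most 1.48 and 1.05. In whole hearts, more cells of a type and more RNA per cell cannot be told apart.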

How the data were processed

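Poly(A) RNA of 6 hearts was sequenced, per the labels' protocols. HISAT2 2.1.0, HTSeq 0.10.0, fastp 0.23.0 and bcl2fastq 2.19.1.403 were used, per the submitters' processing notes, which list mm10, GRCm38 and GRCm39 with no roles; the deposited Il6 start is that of RefSeq on GRCm38.p6. The authors deposited FPKM per transcript, with annotation and strand setting not given in the sources used here. Of 21198 rows, 40 repeats were dropped and FPKM were summed per gene. Reads were recovered as whole multiples of 1 read (within 0.001) in 11744 of 11745 protein-coding and 9413 of 9413 lncRNA rows, a step tested on simulated data.

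The 12114 genes averaging 0.5 FPKM or more were fitted as log2(FPKM + 1) with limma 3.58.1 (R 4.3.3; group only, variance trend, two-sided, Benjamini-Hochberg over all genes, threshold 0.05). Genes named were the 3 members, up to 3 per list with the smallest p, and the 5 of 5 FPKM or more with the highest r to each member. Members and lists were chosen with earlier results of these data known. The labels call the replicates biological without naming animals, and p-values measure only the spread between these samples. Alternatives changed the pseudocount, filter, scaling, variance model, replicate block or hearts kept; limma voom on the reads was added after seeing the data.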

Additional observations from a re-analysis of the deposited data

How the results depend on the processing

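Il6, Socs3 and Pim1 were higher in I/R under every alternative that gave a value, from 1.43 to 2.04, 1.61 to 1.73 and 0.91 to 0.99 with all hearts kept, and Il6 fell below a filter of 5 FPKM. Pearson's r moved most: over deviations from group means it was 0.80 for Il6 and Socs3, −0.33 for Il6 and Pim1 and 0.19 for Socs3 and Pim1, because the group difference is removed. With 1 heart left out, r over the hearts themselves (0.88, 0.53 and 0.84 with all 6) ranged from 0.81 to 0.93, from 0.26 to 0.74 and from 0.73 to 0.92; the cause was not tested. Counts at an unadjusted p under 0.05 fell where fewer genes were tested. With a filter of 5 FPKM they were 340 higher and 300 lower over all genes, against 513 and 510 with the filter of 0.5 FPKM. Among pathway genes 5 of 11 tested were higher and 0 lower, against 10 and 1 of 27. The share of tested genes called higher did not fall with these counts, over all genes or among pathway genes. A fit of the protein-coding genes alone called 296 higher and 159 lower, more than the 173 and 84 of these genes called in the fit with lncRNAs; the cause was not tested. With 1 heart left out, counts over all genes, lncRNAs included, ranged from 374 to 550 higher and 418 to 644 lower. Among pathway genes they ranged from 7 to 10 and 0 to 1. Adjusted calls were 0 throughout. Genes near 0 changed sign: Il11ra1 (0.099 by its most abundant transcript), Stat6 (−0.017 with TMM scaling, −0.072 with quantile normalization, −0.018 with voom) and Pim3 (0.068 with array weights). With 1 heart left out, Ctf1 ranged from −0.25 to 0.048, Osm from −0.26 to 0.11, Il11ra1 from −0.12 to 0.084, Stat6 from −0.024 to 0.061, Socs5 from −0.079 to 0.18 and Pim3 from −0.19 to 0.22. Deviations of same-numbered hearts from their group means correlated by 0.153, 0.028 and 0.029. Only for replicate 1 was the heart of the same number the best match in both directions. Correlations over all genes tested cannot settle whether the numbers pair the hearts. A replicate block cannot move a difference of means in this balanced design (1.46, 1.66 and 0.98); SEs were 0.274, 0.273 and 0.119 with it and 0.601, 0.340 and 0.197 without, 0 genes were called after adjustment and 555 higher and 570 lower at an unadjusted p under 0.05. A count test by edgeR on the recovered reads was planned and not run. Depth limits Il6, with 12 to 212 reads per heart.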
